A study of Mus musculus with 6 samples.

Results

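A total of 5702 new loci made of a single exon and classed by the assembler as intergenic are described here, with their levels in mouse pancreatic islets on 2 diets. They were taken from the deposited transcript assembly as the loci in which every transcript has the assembler's class code for an unknown intergenic transcript and exactly 1 exon, and in which 60 or more counts were found over the 6 libraries. The assembly holds 39470 loci, of which 9185 are new with 1 exon, and 3483 of those had fewer than 60 counts, 12 of them none. The 5702 loci therefore make up 14.4% of all loci. The study set RNA of islets from C57BL/6 mice, a common inbred strain, kept for 8 weeks on a high fat diet beside islets of mice on a normal diet. All mice were 14 weeks old at sacrifice, and each diet has 3 libraries, called here normal diet 1 to 3 and high fat 1 to 3. The stated aim was to find known and new coding and long non-coding transcripts that differ in islets of obese mice. The labels do not say whether the libraries came from separate or pooled animals, so every p-value measures how far these libraries spread, and part of that spread may be technical.

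The endocrine cells of the pancreas sit in islets, where beta cells secrete insulin and alpha cells secrete glucagon. Sequencing of total RNA without selection for poly(A) tails also reads unspliced and short-lived RNA from between genes. Known sources of such RNA are divergent transcription upstream of active promoters, read-through past the ends of genes, transcribed enhancers and independent non-coding genes, and an assembler reports any of them as a single-exon locus when no splice junction is read. Which of these a given locus is was not tested.

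The libraries held between 104657337 and 135353777 counts over all loci. High fat 3 was set apart by the second principal component, where it scored 59.4 and high fat 1 and 2 scored -32.3 and -25.5. Hormone markers of islets were high in every library. The summed beta cell markers (5 of 9 listed genes tested, 2 higher, with Nkx6-1 and Slc2a2 listed at 0 counts) ranged from 55556 to 65421 CPM (read counts scaled to a common library total) on the normal diet and from 80229 to 100201 CPM on the high fat diet, and the alpha cell markers (4 of 6 tested, 2 lower, Ttr at 0) from 22136 to 24450 and from 17357 to 21018 CPM. Acinar markers (18 of 21 tested, 1 higher) ranged from 3442 to 6650 and from 4963 to 10703 CPM, and Schwann cell markers (5 of 5 tested, 3 lower) from 16.7 to 19.5 and from 8.22 to 14.6 CPM. Stromal markers (6 of 6 tested, 2 higher) ranged from 336 to 415 and from 427 to 550 CPM, and duct markers (5 of 7 tested, none called) from 178 to 209 and from 210 to 308 CPM, so that the beta, alpha, Schwann, stromal and duct sums did not overlap between diets. Such sums follow their most abundant genes. Among stromal markers Rgs5 and Acta2 had log2 fold changes of 0.69 and 0.83, Pdgfrb had -0.01, and Col1a1, Col1a2 and Col3a1 had -1.37, -0.65 and -0.44 without a call. Gcg made up most of the alpha sum and was not called. Among beta markers Iapp and G6pc2 were called higher, and Ins1, Ins2 and Ucn3 were not called. The part of these cell types in the results below was not tested beyond a fit with the acinar level as a covariate. In whole islets, fewer cells of a type and less RNA per cell cannot be told apart.

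Most of the 5702 loci are short and near the lower limit of counting. Their length ran from 107 to 28587 bases with a median of 1494, and their mean level over the 6 libraries from 0.0799 to 503 CPM with a median of 0.231 CPM. A level under 1 CPM was found for 4686 loci (82.2%). At the other end, 71 loci of 50 CPM or more held 57.7% of the summed CPM of all 5702. Beside the count limit, the 543 loci with 60 to 69 counts had a median of 0.0893 CPM, and the 683 single-exon loci with 50 to 59 counts, which were left out, had a median of 0.0753 CPM. The assembly gave 5670 loci no strand and 32 a strand, so that reads of the 2 strands cannot be told apart in them. An exon of another locus was overlapped by 7.

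The side and distance of each locus were measured to the nearest locus to which the assembly gave a protein identifier, called a coding locus here, with upstream and downstream read from the strand of that coding locus. Upstream lay 3448 loci and downstream 1858, and 396 lay inside the outer limits of a coding locus. The median gap was 3.92 kb, or 1.74 kb upstream and 11.1 kb downstream. Most of the difference between the sides lay in the first kilobase. There 1610 loci lay upstream (28.2% of all 5702, with a median gap of 149 bases, and 1016 of them within 200 bases) and 108 lay downstream. Between 1 and 5 kb the numbers were 416 upstream and 524 downstream, between 5 and 50 kb 822 and 752, and at 50 kb or more 600 and 474.

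**Figure D1:**
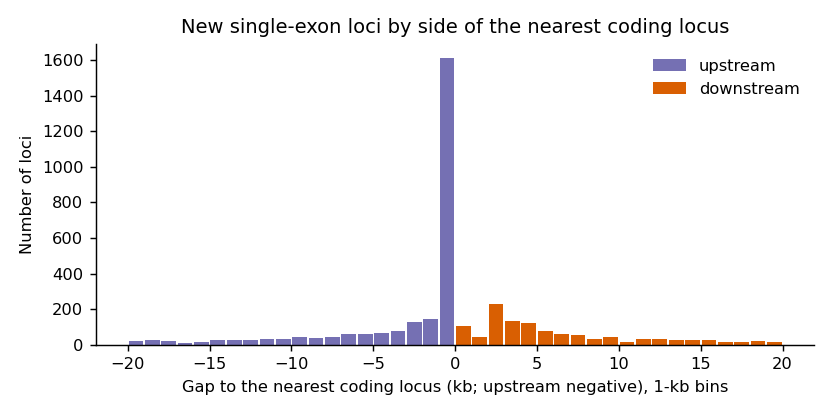
Number of new single-exon loci in 1-kb bins of the gap to the nearest coding locus, upstream to the left (negative) and downstream to the right, out to 20 kb. The first bin upstream holds 1610 loci against 108 in the first bin downstream.

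The coding loci beside these near upstream loci were well expressed. A new locus within 1 kb upstream was found for 1596 coding loci, and their median level was 10.9 CPM per kb of exon against 3.98 CPM per kb for the 14396 coding loci that entered the diet test. Under 1 CPM were 3.88% of the former and 16.2% of the latter. A new locus needs 60 counts to be included, and whether the level of the coding locus goes with the chance of reaching them was not tested. Over all distances, the 5702 loci had 3751 different nearest coding loci, of which 2720 had 1 such locus and 103 had 5 or more. Another new single-exon locus lay within 5 kb of 2332 loci (40.9%), so many are not independent of each other.

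The coordinates of the assembly are in mouse build mm9, whose sequence was not used here, so the loci themselves are given by position. As examples of DNA beside near upstream loci, the 250 bases before the RefSeq start of 3 neighbouring genes are printed (RefSeq, build GRCm38.p6). They run in the direction of each gene, with each CG dinucleotide in capitals. Isl1 encodes a homeodomain factor of islet cells and has XLOC_009795 ending 51 bases upstream. Shisa2 encodes an endoplasmic reticulum protein that restrains Wnt and FGF receptors and has XLOC_011230 ending 65 bases upstream. G6pc2 encodes the islet glucose-6-phosphatase subunit and has XLOC_021295 ending 336 bases upstream, which is farther than the 250 bases printed. The gaps were measured in mm9, and the RefSeq start need not be the start of the assembled locus.
Isl1 (chr13:116309689-116309938, minus strand): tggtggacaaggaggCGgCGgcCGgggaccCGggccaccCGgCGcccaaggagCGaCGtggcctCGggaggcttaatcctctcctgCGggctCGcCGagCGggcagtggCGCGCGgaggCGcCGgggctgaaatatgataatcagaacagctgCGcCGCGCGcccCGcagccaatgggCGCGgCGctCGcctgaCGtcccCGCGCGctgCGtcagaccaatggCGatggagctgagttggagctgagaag
Shisa2 (chr14:59625031-59625280, plus strand): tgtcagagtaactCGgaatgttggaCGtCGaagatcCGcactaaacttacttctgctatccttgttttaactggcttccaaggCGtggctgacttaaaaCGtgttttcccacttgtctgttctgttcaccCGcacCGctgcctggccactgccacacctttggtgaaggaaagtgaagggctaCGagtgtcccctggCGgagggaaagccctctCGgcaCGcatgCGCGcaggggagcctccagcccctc
G6pc2 (chr2:69210823-69211072, plus strand): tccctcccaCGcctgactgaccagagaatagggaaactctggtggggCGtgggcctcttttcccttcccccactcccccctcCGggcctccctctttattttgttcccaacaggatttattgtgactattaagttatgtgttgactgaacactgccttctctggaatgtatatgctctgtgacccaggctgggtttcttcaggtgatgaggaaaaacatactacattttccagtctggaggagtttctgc
The motif searched was CG, which reads the same on both strands. The Isl1 window holds 33 CG and is 71.2% G or C, the Shisa2 window holds 14 CG at 56%, and the G6pc2 window holds 3 CG at 50%. Over 27025 promoters of the RefSeq table the median was 6 CG in 250 bases, and 38.2% held 10 or more. These 3 promoters were printed because their upstream loci are described below, and the counts describe only these windows.

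The comparison of diets asked which of the loci differ between islets of the 2 diets. The quasi-likelihood test of edgeR was fitted over the whole table, with p-values adjusted by Benjamini-Hochberg, and 23983 loci passed the filter on low counts, among them 5511 of the 5702. The 191 others had at most 120 counts in all. At an adjusted p of 0.05, 100 new single-exon loci (1.81%) had risen in high fat islets and 261 (4.74%) had fallen, against a background of 5.95% higher and 4.86% lower among all loci tested. The 3 high fat libraries lay all above or all below the 3 normal diet libraries for 1910 loci (34.7%), 400 of them higher and 1510 lower, against 39.2% of all loci tested, and for each of the 361 that passed the test. By direction these were 7.26% higher and 27.4% lower, against 18.8% and 20.4% of all loci tested. The share of called falls was thus near the background and that of falls without overlap above it, while rises were below it by both measures. The split of calls changed where both the scaling and the test were changed. Cyclic loess, which evens out differences that go with level, gave 29 higher and 14 lower with limma. On the deposited scaled values, which differ from the counts by 1 constant per library, limma gave 25 higher and 223 lower. The parts of scaling and of test in these numbers were not tested. Without normal diet 1, 2 or 3 edgeR called 0 loci of the whole table, with 994, 1310 and 1359 of the new single-exon loci at an unadjusted p under 0.05, and with the acinar level as a covariate it also called 0 of the whole table, with 859.

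As a group the loci stood lower on the high fat diet under the main scaling. Their median log2 fold change was -0.33, against -0.05 over all loci tested, 0.06 over coding loci and -0.21 over new spliced loci, and 73.6% had a negative value against 54.5% of all loci tested. Under cyclic loess the median was -0.0022. Relative to the mean of the normal diet libraries, the median locus stood at 0.13, -0.05 and -0.06 on the log2 scale in normal diet 1, 2 and 3 and at -0.27, -0.37 and -0.25 in high fat 1, 2 and 3 (log2 of CPM plus 0.01, pooled SD 0.088). The diets did not overlap in this measure. The share of all counts that fell in the 5702 loci, which the few abundant loci dominate, was 1.70 ± 0.050% for the normal and 1.75 ± 0.051% for the high fat diet (SD, n = 3 each, difference 0.051, two-sided exact permutation test p = 0.3, where the smallest p that 3 against 3 allows is 0.1). With the TMM-scaled library size as the denominator the difference was 0.295 with that smallest p of 0.1, and with 1 library left out it lay between 0.027 and 0.079. Without the 71 loci of 50 CPM or more, the share was 0.768 ± 0.035% and 0.696 ± 0.017%, a difference of -0.072 with the smallest p of 0.1 by the same exact test.

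Length went with the diet difference. The median log2 fold change was 0.07 for the 552 tested loci under 500 bases, -0.16 for 979 of 500 to under 1000 bases, -0.37 for 2126 of 1000 to under 2000 bases and -0.49 for 1854 of 2000 bases or more. Loci under 500 bases were called higher in 14 cases and lower in 2, the next class in 37 and 17, the class from 1000 bases in 37 and 58, and the longest class in 12 and 184. The longest class thus held 184 of the 261 falls. Called lower were 0.362%, 1.74%, 2.73% and 9.92% from short to long, against 4.86% of all loci tested. Called higher were 2.54%, 3.78%, 1.74% and 0.647%, against 5.95%. The median level was 0.337, 0.163, 0.156 and 0.428 CPM in the same order, and its part in the number of calls was not tested. In each library the longest class departed most from the normal diet mean, to 0.23, -0.09 and -0.12 in normal diet 1, 2 and 3 and to -0.43, -0.56 and -0.37 in high fat 1, 2 and 3. In the shortest class the diets overlapped, at -0.08, 0.01 and 0.06 against 0.16, 0.03 and 0.12.

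**Figure D2:**
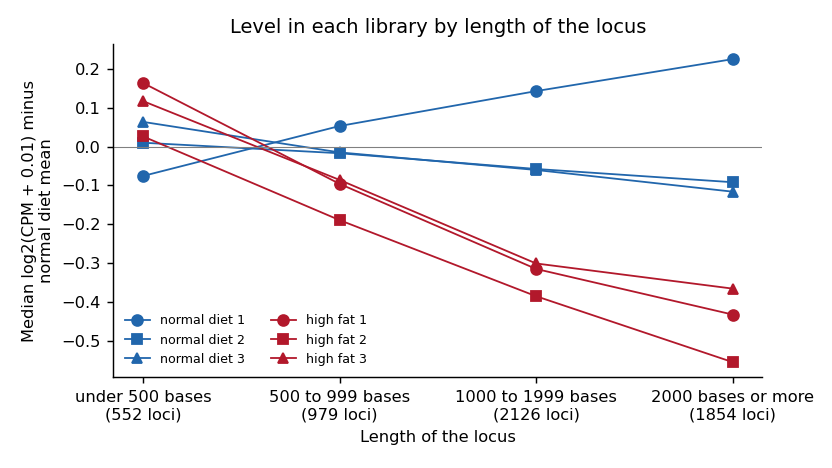
Median over loci of log2(CPM + 0.01) minus the normal diet mean of the same locus, for each of the 6 libraries (points, joined by lines) in 4 classes of length. The high fat libraries go from between 0.03 and 0.16 in the shortest class to between -0.56 and -0.37 in the longest, and normal diet 1 goes the other way, from -0.08 to 0.23.

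The order of the 4 classes was the same in the other 14 fits that gave class medians (other scalings, filters and tests, a replicate block, each library left out, an acinar covariate), while the position of zero moved. Cyclic loess gave 0.31, 0.16, 0.01 and -0.19, so that the direction of both middle classes turned. Among loci under 0.2 CPM the medians from short to long were -0.04, -0.32, -0.45 and -0.78, among those of 0.2 to 1 CPM 0.01, -0.31, -0.37 and -0.50, and among those of 1 to 5 CPM 0.19, 0.16, -0.04 and -0.41. At 5 CPM or more the order no longer held below the longest class, with 0.23, 0.33, 0.31 and 0.06. Loci within 5 kb of a coding locus ran from -0.14 through -0.31 and -0.38 to -0.46, and those 50 kb or more away from 0.12 through 0.13 and -0.35 to -0.56.

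New spliced loci also differed by length, and in coding loci the longest class stood lowest. New spliced loci, classed by their exonic bases, had medians of 0.20, 0.08, -0.09 and -0.29 from short to long. Coding loci of 0.2 to 1 CPM had -0.26 (12 loci), -0.18 (71), -0.19 (255) and -0.33 (1292), and those of 1 to 5 CPM 0.02 (14), -0.01 (82), 0.01 (278) and -0.15 (1760). Under cyclic loess the first of these series became -0.10, 0.08, 0.08 and -0.06, in which the longest class was not the lowest. Whether the step by length differs between the kinds of locus was not tested.

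Distance and side went with smaller differences than length did. The median log2 fold change was -0.38 within 1 kb of the coding locus, -0.45 at 1 to 5 kb, -0.26 at 5 to 50 kb and -0.17 at 50 kb or more, and -0.31 upstream against -0.32 downstream. The class within 1 kb includes the loci inside the limits of a coding locus. Outside those limits its loci stood at -0.32 upstream and -0.47 downstream. Under cyclic loess the distance classes stood at -0.06, -0.07, 0.06 and 0.11 and both sides at 0.02, so that the direction of both farther classes and of both sides turned. Called higher were 2 of 2068 loci within 1 kb, 8 of 898, 40 of 1504 and 50 of 1041 in the same order, and called lower 89, 48, 64 and 60. The shares called higher were 0.0967%, 0.891%, 2.66% and 4.80%, each below the 5.95% of all loci tested. The shares called lower were 4.30%, 5.35%, 4.26% and 5.76%, against 4.86%. Rises were thus more frequent farther from coding loci, where abundant loci also lay. Of the 71 loci of 50 CPM or more, 41 were called higher and none lay within 1 kb. Whether rises go with distance apart from level was not tested. The 1581 tested loci within 1 kb upstream held 1 rise and 48 falls. Of the 1572 tested coding loci beside such loci 182 (11.6%) were higher and 35 (2.23%) lower, against 8.51% and 3.14% of all tested coding loci, and the difference in calls between new and coding loci was not tested. The loci inside the limits of a coding locus had the lowest median of the 3 positions, -0.63 (-0.28 under cyclic loess), with 1 of 380 higher and 37 lower. Their share of counts was 0.0348 ± 0.0056% under normal and 0.0232 ± 0.0014% under high fat feeding (SD, n = 3 each), with no overlap between the diets and the smallest exact permutation p of 0.1.

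Level also went with the diet difference, in coding loci as in the new loci. From under 0.2 CPM through 0.2 to 1, 1 to 5 and 5 to 50 CPM to 50 CPM or more, the median log2 fold change of the new single-exon loci was -0.43, -0.39, -0.15, 0.25 and 0.39, and that of coding loci -0.40, -0.30, -0.11, 0.07 and 0.19. Cyclic loess brought the medians of coding loci to between -0.04 and 0.02 and those of the new loci under 5 CPM to between -0.07 and 0.02, and left the new loci of 5 CPM or more at 0.21 in both classes. Of the 71 new loci of 50 CPM or more, 41 were called higher and none lower, with 69 positive values between the lowest of -0.10 and the highest of 0.73. Of 4064 coding loci of 50 CPM or more, 802 were higher and 38 lower. The 71 loci had a median length of 945 bases and a median of 126 CPM per kb, against 0.150 CPM per kb over all 5702. None of them lay within 1 kb of a coding locus and 30 lay 50 kb or more away, and for 31 the nearest coding locus was under 1 CPM. They held 0.930 ± 0.016% of counts under normal and 1.05 ± 0.054% under high fat feeding (SD, n = 3 each, the smallest exact permutation p of 0.1).

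**Figure D3:**
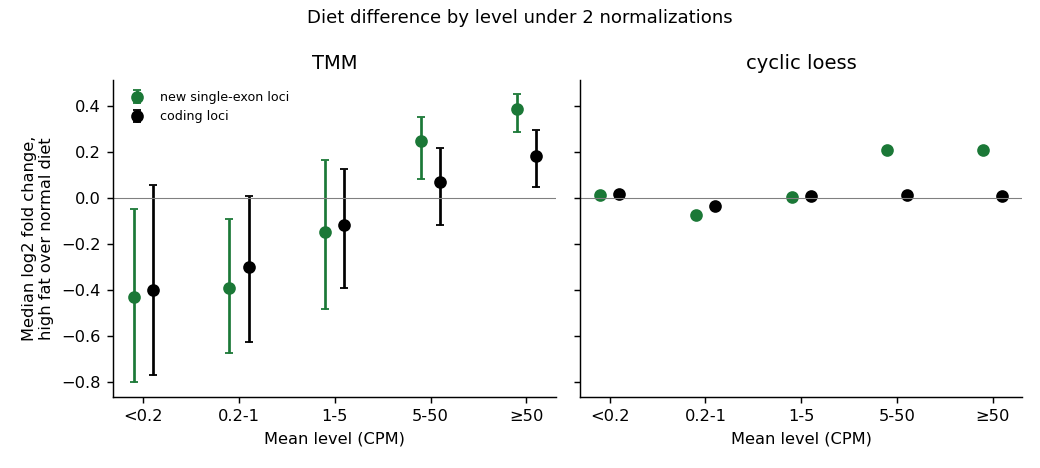
Median log2 fold change between diets in 5 classes of mean level for new single-exon loci and coding loci, under TMM scaling with the quartiles of the loci as bars (left) and under cyclic loess without bars (right). Under TMM both kinds rise with level, from -0.43 to 0.39 and from -0.40 to 0.19, and under cyclic loess only the new loci of 5 CPM or more stay clearly above 0, at 0.21.

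The most abundant locus was XLOC_033400, 1043 bases on chromosome 7 from 121848709 to 121849751 and 12.4 kb upstream of the calcitonin-related peptide gene Calcb, which was at 0.00715 CPM. It stood at 415, 399 and 388 CPM in normal diet 1, 2 and 3 and at 616, 597 and 602 CPM in high fat 1, 2 and 3, and its log2 fold change was 0.59 (SE 0.071, edgeR adjusted p = 0.011). Each diet's libraries lay close together and well apart from those of the other diet. XLOC_030108 (chromosome 6, 66825156 to 66825885), 20.5 kb upstream of the G protein gamma subunit gene Gng12, had 309, 302 and 308 CPM against 450, 475 and 425 CPM (0.55, SE 0.075, edgeR adjusted p = 0.014). XLOC_021320 (chromosome 2, 75028917 to 75029923), 314 kb downstream of the mitochondrial import gene Mtx2, had 266, 272 and 247 CPM against 422, 442 and 400 CPM (0.69, SE 0.079, edgeR adjusted p = 0.011). XLOC_037445 (chromosome 9, 33535754 to 33537759), 756 kb upstream of the adhesion protein gene Kirrel3, had 261, 282 and 272 CPM against 369, 397 and 352 CPM (0.46, SE 0.079, edgeR adjusted p = 0.022).

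These 4 loci rose by similar amounts without overlap under TMM. Under cyclic loess the values were smaller, at 0.33 for XLOC_033400, 0.31 for XLOC_030108, 0.45 for XLOC_021320 and 0.22 for XLOC_037445. There limma called XLOC_033400 and XLOC_021320 (adjusted p = 0.0496 and 0.035) but not XLOC_030108 and XLOC_037445 (adjusted p = 0.065 and 0.13). The fifth, XLOC_006295 (chromosome 11, 48565253 to 48567265), 46.6 kb upstream of the ribosomal scaffold gene Rack1, overlapped between diets, with 377, 357 and 297 CPM against 297, 264 and 399 CPM (-0.10, SE 0.16, edgeR adjusted p = 0.68), and its value was 0.03 without high fat 2. XLOC_033417, 1450 bases and 284 kb downstream of the nesfatin precursor gene Nucb2, had 245, 274 and 274 CPM against 370, 384 and 315 CPM (0.43, SE 0.097, edgeR adjusted p = 0.033). Under cyclic loess it stood at 0.19 (limma adjusted p = 0.26). Nucb2 itself rose by 1.04 (edgeR adjusted p = 0.015), more than the new locus did, and the difference between them was -0.59 (SE 0.13, limma adjusted p = 0.030).

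Loci chosen as the most abundant near coding loci gave values between 0.18 and 0.43 under TMM. Under cyclic loess they lay between -0.011 and 0.28, and limma called none of them. Among those within 5 kb downstream, XLOC_012841, 2.72 kb past the collagen gene Col22a1, rose from 104.8, 92.4 and 104 CPM to 128, 131 and 139 CPM (0.40, edgeR adjusted p = 0.029), while Col22a1 was at 0.140 CPM. XLOC_030244, 3.55 kb past the DNA repair ubiquitin ligase gene Rad18, had 140, 126 and 145 CPM against 145, 157 and 162 CPM (0.18, edgeR adjusted p = 0.19). XLOC_033523, 3.70 kb past the phosphatidylserine synthase gene Ptdss2, had 59.9, 62.6 and 65.5 CPM against 93.8, 84.3 and 60.5 CPM (0.34, edgeR adjusted p = 0.15).

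Only high fat 3 of the last locus lay within the range of the normal diet. Within 5 kb upstream, XLOC_027824, 2.91 kb before the ABC-family gene Abcf2, rose from 118, 121 and 118 CPM to 173, 169 and 139 CPM (0.43, edgeR adjusted p = 0.033). XLOC_025687, 4.10 kb before the sperm protein gene Eqtn, rose from 47.6, 46.6 and 45.8 CPM to 60.8, 61.5 and 63.2 CPM (0.41, edgeR adjusted p = 0.025). XLOC_034984, 1.47 kb before the defensin gene Defb7, had 189, 197 and 196 CPM against 270, 274 and 151 CPM (0.26, edgeR adjusted p = 0.39). High fat 3 was again the library that stood on the other side.

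The largest rises lay far from coding loci for the most part. They and the largest falls were taken from called loci of at least 0.5 CPM whose diets did not overlap, 94 that rose and 118 that fell. XLOC_025773 (chromosome 4, 118614952 to 118616047), 1096 bases and 7.51 kb upstream of a coding locus of 0.00294 CPM, had 0.160, 0.182 and 0.245 CPM on the normal diet, against 0.609, 1.27 and 0.694 CPM on the high fat diet, which gives 2.11 on the log2 scale (SE 0.34, edgeR adjusted p = 0.020). XLOC_035221 (chromosome 8, 51624357 to 51624493) is 137 bases long and 1864 kb upstream of Tenm3, which encodes a synaptic adhesion protein of the teneurin family. It had 0.616, 0.957 and 0.638 CPM against 2.18, 2.07 and 1.23 CPM (1.31, SE 0.27, edgeR adjusted p = 0.029), with Tenm3 at -0.07 (edgeR adjusted p = 0.57). In both loci every high fat library was above every normal diet library, and 1 high fat library was well above or below the other two.

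XLOC_014121, 5788 bases long and 117 kb upstream of Kcnj6, a gene for a G protein-gated potassium channel, had 0.984, 0.775 and 0.736 CPM against 1.65, 2.22 and 1.69 CPM (1.15, SE 0.20, edgeR adjusted p = 0.022), and Kcnj6 stood at 0.05. XLOC_001989, 5142 bases and 227 kb downstream of Sec16b, a gene of vesicle export from the endoplasmic reticulum, rose by 1.11 and Sec16b by 0.34 (edgeR adjusted p = 0.042). XLOC_025645, 150 kb downstream of the nuclear factor gene Nfib, rose by 0.97, and Nfib stood at -0.02. XLOC_037465, 44.8 kb upstream of the phosphatase gene Ubash3b, rose by 0.80 with Ubash3b at -0.42 (edgeR adjusted p = 0.17), a difference of 1.22 (SE 0.22, limma adjusted p = 0.021). Of these 4 coding neighbours Sec16b alone passed the test.

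The other 4 rises were XLOC_033190 (1.26) on chromosome 7 beside a vomeronasal receptor gene without counts, Vmn2r60, XLOC_023272 (0.78), 4.83 kb upstream of the ribosome export gene Nmd3, XLOC_017194 (0.73), 118 kb downstream of the thioredoxin-like gene Txnl1, and XLOC_011230 at Shisa2. XLOC_017194 was by far the most abundant of the 10, with 115, 118 and 115 CPM against 185, 202 and 190 CPM (SE 0.074, edgeR adjusted p = 0.0090). XLOC_011230, which ends 65 bases before Shisa2 and is 3093 bases long (chromosome 14, 60240960 to 60244052), had 0.384, 0.365 and 0.330 CPM against 0.547, 0.828 and 0.609 CPM, which gives 0.88 on the log2 scale (SE 0.23, edgeR adjusted p = 0.047). Shisa2 rose as well, from 19.0, 25.3 and 20.7 CPM to 27.9, 38.8 and 32.8 CPM (0.61, SE 0.15, edgeR adjusted p = 0.039). High fat 2 was the highest library in both. It was the 1 locus of 1581 within 1 kb upstream that was called higher.

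**Figure D4:**
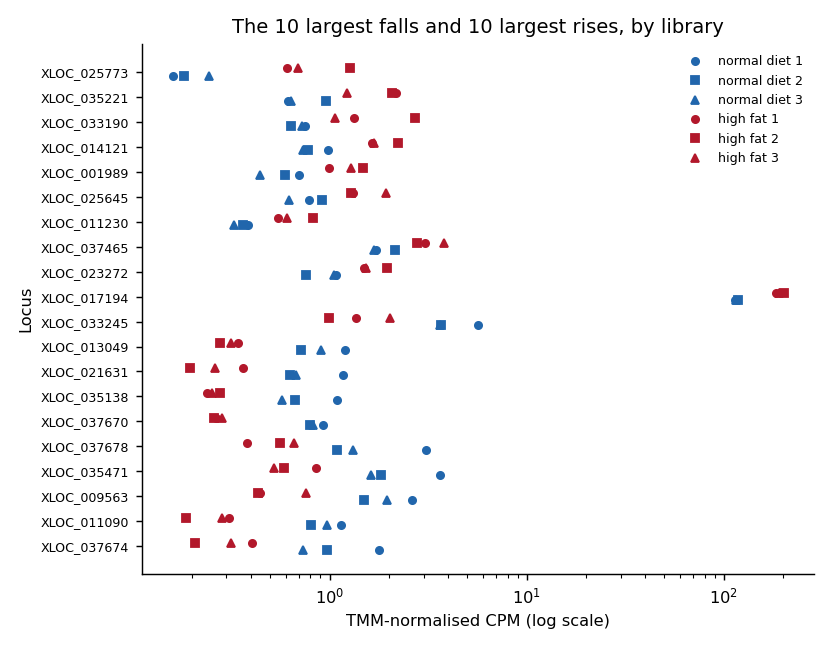
TMM-scaled CPM on a log axis in each of the 6 libraries for the 10 largest rises (upper rows) and the 10 largest falls (lower rows) among called new single-exon loci of at least 0.5 CPM without overlap between diets. Normal diet 1 is the highest library in all 10 falls, and XLOC_017194 lies above 100 CPM where the others lie under 10 CPM.

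The largest falls were all at a few CPM or less. XLOC_011090 (chromosome 14, 14744858 to 14745166), 309 bases and 36.4 kb downstream of the mRNA export gene Thoc7, had 1.14, 0.802 and 0.975 CPM on the normal diet, against 0.309, 0.186 and 0.285 CPM on the high fat diet, which gives -1.89 on the log2 scale (SE 0.26, edgeR adjusted p = 0.014). XLOC_009563 (chromosome 13, 59977188 to 59980478), 52.7 kb upstream of the RNA uridylating enzyme gene Tut7, had 2.62, 1.5 and 1.95 CPM against 0.442, 0.435 and 0.756 CPM (-1.88, SE 0.29, edgeR adjusted p = 0.019). XLOC_035471 (chromosome 8, 122800692 to 122808092), 99.3 kb upstream of an unnamed coding locus, had 3.65, 1.82 and 1.63 CPM against 0.857, 0.590 and 0.524 CPM (-1.85, SE 0.34, edgeR adjusted p = 0.024). Normal diet 1 was the highest library in each, and the diets did not overlap without it either.

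XLOC_021631 (chromosome 2, 162551307 to 162552619) lies inside the limits of the receptor phosphatase gene Ptprt. It had 1.18, 0.629 and 0.673 CPM against 0.362, 0.197 and 0.262 CPM (-1.58, SE 0.33, edgeR adjusted p = 0.029), while Ptprt, at a mean of 128 CPM, stood at 0.06 (edgeR adjusted p = 0.76). XLOC_013049, 63.2 kb upstream of the mucin-like gene Glycam1, stood at -1.58 and XLOC_033245, 264 kb upstream of an unnamed coding locus of 60.4 CPM, at -1.55. None of the tested coding neighbours of these falls passed the test. Reads of Tut7 and Thoc7 are uncertain, since 93.7% and 96.9% of their exonic bases are shared with another locus.

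Of the 10 largest falls, 3 came from 1 stretch of chromosome 9 between and within Gclc, which encodes the rate-limiting enzyme of glutathione synthesis, and Elovl5, which encodes a fatty acid elongase. XLOC_037674 (77667262 to 77675065), 25 kb downstream of Gclc, had 1.78, 0.966 and 0.736 CPM on the normal diet, against 0.406, 0.207 and 0.316 CPM on the high fat diet (-1.89, SE 0.38, edgeR adjusted p = 0.027). XLOC_037670 (77651552 to 77653997), 9.26 kb downstream of Gclc, had 0.928, 0.793 and 0.827 CPM against 0.265, 0.259 and 0.285 CPM (-1.65, SE 0.20, edgeR adjusted p = 0.011). XLOC_037678 (77744131 to 77746921), within the limits of Elovl5, had 3.09, 1.09 and 1.31 CPM against 0.380, 0.559 and 0.663 CPM (-1.77, SE 0.41, edgeR adjusted p = 0.034). Normal diet 1 carried much of the last difference.

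All new single-exon loci nearest to either gene were then counted, a set chosen after these values had been seen and given without a test. There were 13 over 163 kb (77598711 to 77761383), of which 12 entered the test, 12 had negative values, 10 were lower without overlap and 6 passed. Of all loci tested 20.4% were lower without overlap and 4.86% were called lower. The log2 fold changes of the 12 ran from -1.89 to -0.29 with a median of -1.52. Under cyclic loess the median was -1.04, 11 were negative and only XLOC_037670 passed by limma. Summed, they held 14.7, 8.82 and 8.07 CPM in normal diet 1, 2 and 3 and 4.24, 3.70 and 4.91 CPM in high fat 1, 2 and 3. Gclc and Elovl5 did not follow them, at 0.24 (edgeR adjusted p = 0.11) and 0.13 (edgeR adjusted p = 0.34).

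Some coding loci had long runs of new loci on 1 side. The longest run lay on chromosome 8 downstream of Gm3985, a predicted gene on the minus strand (33995387 to 34060498), with 42 loci between 33566347 and 33994438. They were 1516 to 21718 bases long and together covered 152 kb of the 428 kb, and the nearest began 0.948 kb past the gene. The 42 loci held 19.8, 13.0 and 10.3 CPM in sum in normal diet 1, 2 and 3 and 6.27, 6.32 and 5.04 CPM in high fat 1, 2 and 3. Every normal diet sum was above every high fat sum.

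All 41 tested loci of the run had negative log2 fold changes, from -2.07 to -0.57 with a median of -1.33, against the median of -0.33 over all tested single-exon loci. Without overlap between diets lower were 35, and 12 passed the test, against 20.4% and 4.86% of all loci tested. The median level in the run was 0.159 CPM. Tested single-exon loci of 2000 bases or more and under 0.2 CPM, a class that holds part of the run, had a median of -0.78. Of that class 7.98% were called lower. Under cyclic loess 40 of 41 were negative, with a median of -0.79, and limma called 0 of them against 18 at an unadjusted p under 0.05. Leaving out 1 library at a time gave medians between -1.53 and -1.04, with 12 called by edgeR without high fat 3 and 0 without any other library, where from 24 to 39 had an unadjusted p under 0.05. Neighbouring loci of a run may be pieces of 1 longer transcript, so the 41 values are not independent.

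XLOC_035107, at 21718 bases the longest locus of the run (222 kb past Gm3985), had 3.46, 1.99 and 1.70 CPM against 0.945, 1.16 and 0.594 CPM (-1.41, SE 0.33, edgeR adjusted p = 0.035). XLOC_035138, 55.9 kb past the gene, had 1.10, 0.666 and 0.575 CPM against 0.238, 0.280 and 0.254 CPM (-1.60, SE 0.29, edgeR adjusted p = 0.024). XLOC_035135, with the lowest fold change of the run, rested on 28, 10 and 20 counts against 6, 3 and 3 counts (-2.07, SE 0.51, edgeR adjusted p = 0.039). Gm3985 itself had 0.400, 0.447 and 0.603 CPM against 0.247, 0.342 and 0.401 CPM, which overlap in 1 high fat library, at -0.55 (edgeR adjusted p = 0.20).

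**Figure D5:**
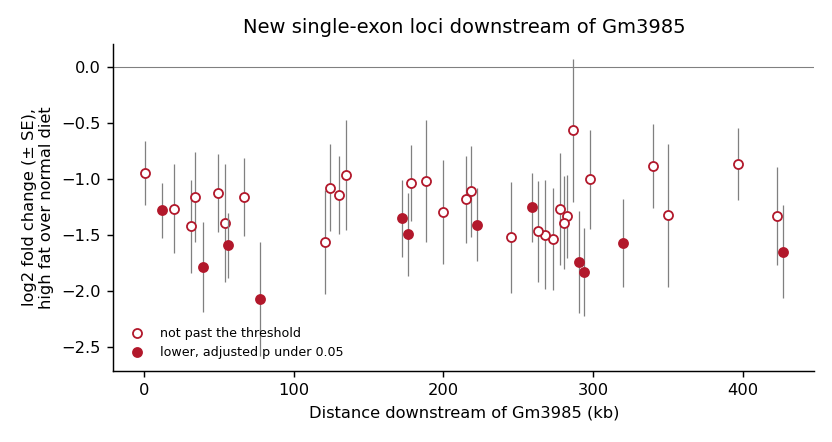
Log2 fold change between diets (points, bars are the SE of the fit over 6 libraries) of the 41 tested new single-exon loci downstream of Gm3985, against their distance from the gene in kb. All points lie between -2.07 and -0.57, and the 12 that passed the edgeR threshold (filled) are spread over the whole 428 kb.

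The next longest runs were those upstream of 4931429L15Rik on chromosome 9, with 26 loci over 397 kb, and downstream of Foxo1 on chromosome 3, with 17 loci over 310 kb. Foxo1 encodes a forkhead factor that insulin signalling keeps out of the nucleus. The run of 4931429L15Rik summed to 16.0, 8.75 and 8.65 CPM in normal diet 1, 2 and 3 and to 7.28, 5.87 and 7.41 CPM in high fat 1, 2 and 3, and 24 of 25 tested loci were negative (median -0.66) with 3 lower. The run of Foxo1 summed to 5.65, 3.57 and 2.79 CPM against 2.52, 2.02 and 2.48 CPM, with 11 of 13 tested loci negative (median -0.90) and 1 lower, while Foxo1 stood at 0.10 (edgeR adjusted p = 0.73). Of all loci tested 4.86% were called lower. Normal diet 1 stood far above the other normal diet libraries in both sums. Without it the medians were -0.33 and -0.46. Under cyclic loess they were -0.27 and -0.30, with 20 of 25 and 8 of 13 negative, and limma called 0 in either run against 6 and 3 at an unadjusted p under 0.05.

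Whether a new locus changed differently from its nearest coding locus was tested on the difference of their log2 CPM in each library, by limma with adjustment over all 8615 such pairs of a locus without a protein identifier and a tested coding locus. Of 5016 pairs with a new single-exon locus, 38 were higher relative to the coding locus on the high fat diet (0.758%) and 247 lower (4.92%), against a background of 1.11% and 6.09% over all 8615 pairs. The coding loci of the 5016 pairs had a median of 45.4 CPM, against 0.231 CPM over all 5702 new loci. Fold changes under TMM went with level, and the pairs were not fitted under cyclic loess. How far the lower pairs go with level was therefore not tested. In the 247 lower pairs the new locus itself was lower by edgeR in 125, the coding locus was higher in 76, both held in 12, and the coding locus was not called in 171. These pairs had 199 different coding loci. In the 38 higher pairs the new locus itself was higher in 16. Leaving out high fat 3 gave 600 pairs in all, and leaving out any other library between 0 and 8.

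Across the 5016 pairs the fold changes of the new locus and of its neighbour had a Spearman's rho of 0.14, given as a description because the pairs share libraries, scaling and often a coding locus. It was 0.12 for the 1557 pairs within 1 kb upstream and 0.44 for the 105 within 1 kb downstream. Of the 361 called loci 327 had a tested neighbour, which was called in the same direction for 22, in the other for 13 and not at all for 292. Among all tested coding loci 8.51% were called higher and 3.14% lower, so most neighbours of any locus would not be called. Within 5 kb of a coding locus that fell, the 64 tested new loci had a median log2 fold change of -0.63, within 5 kb of one that rose 341 had -0.29, and beside those that did not pass 2476 had -0.41. At 50 kb or more the values were -0.46 for 26, -0.24 for 95 and -0.18 for 730. These are values under TMM. Under cyclic loess the 3 classes stood at -0.30, 0.03 and -0.08 within 5 kb and at -0.14, 0.12 and 0.11 at 50 kb or more, so that the direction beside rising coding loci turned. In both scalings the lowest medians were those beside coding loci that fell.

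The smallest p-values of this test came in part from the coding locus. Fbp2, which encodes the muscle type of the gluconeogenic enzyme fructose-bisphosphatase, rose from 0.0880, 0.191 and 0.126 CPM to 0.936, 1.28 and 0.972 CPM (2.98, SE 0.30, edgeR adjusted p = 0.0090). XLOC_009580 on chromosome 13, 21.9 kb downstream of it, had 2.58, 2.86 and 3.4 CPM against 3.07, 3.26 and 3.42 CPM (0.14, edgeR adjusted p = 0.56), and the difference from Fbp2 was -2.72 (SE 0.30, limma adjusted p = 0.0046). XLOC_009579, next to it, had 0.928, 1.07 and 1.14 CPM against 1.09, 0.963 and 1.06 CPM and a difference of -2.88 (SE 0.30, limma adjusted p = 0.0046). Both loci overlapped between diets while the gene beside them did not.

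Dapl1, a gene named for its likeness to a death-associated protein, went from 34.4, 35.7 and 28.6 CPM to 130, 178 and 115 CPM (2.1, edgeR adjusted p = 0.0074). XLOC_021275, 19.6 kb upstream of it, had 0.400, 0.428 and 0.309 CPM against 0.362, 0.269 and 0.301 CPM, a difference from Dapl1 of -2.35 (SE 0.29, limma adjusted p = 0.0077). In the other 2 of the 5 leading pairs the new locus fell and the gene did not pass the test. XLOC_009614 on chromosome 13, 267 kb downstream of the Mediator subunit gene Med10, had 0.416, 0.374 and 0.680 CPM against 0.0883, 0.0828 and 0.123 CPM (-2.30, SE 0.34, edgeR adjusted p = 0.018), with a difference of -2.29 (SE 0.33, limma adjusted p = 0.015). XLOC_037670 differed from Gclc by -1.83 (SE 0.23, limma adjusted p = 0.0077).

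Of a list of 30 islet genes, 24 were matched to an assembled locus and 11 of these had a tested new single-exon locus nearest to them. Of the 21 loci involved 1 passed the edgeR test, against 5.95% called higher and 4.86% called lower among all loci tested. The locus that passed was XLOC_009795, which was lower. It is 5904 bases long and ends 51 bases before Isl1 (chromosome 13, 117105693 to 117111596), at 5.35, 3.64 and 4.10 CPM on the normal diet, against 2.56, 2.62 and 2.66 CPM on the high fat diet, which gives -0.74 on the log2 scale (SE 0.17, edgeR adjusted p = 0.035). Isl1 fell with it, from 31.0, 26.4 and 28.6 CPM to 18.1, 17.5 and 20.3 CPM (-0.62, SE 0.11, edgeR adjusted p = 0.022), and the difference between them was -0.10 (SE 0.17, limma adjusted p = 0.73). The high fat libraries of both lay close together and below all normal diet libraries. Of the exonic bases of the assembled Isl1 locus, 46.0% are shared with another locus, so reads there may have gone uncounted. XLOC_009792, 41.9 kb downstream of Isl1, stood at -0.68 (edgeR adjusted p = 0.16).

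XLOC_021295, which ends 336 bases before G6pc2 (chromosome 2, 69056504 to 69057718), had 0.424, 0.210 and 0.393 CPM against 0.132, 0.114 and 0.308 CPM (-0.86, SE 0.43, edgeR adjusted p = 0.20). High fat 3 lay within the range of the normal diet, and without it the value was -1.46 (edgeR adjusted p = 0.033). G6pc2 rose from 3963, 4463 and 4768 CPM to 7720, 7912 and 7046 CPM (0.78, SE 0.094, edgeR adjusted p = 0.011), and the difference between them was -1.68 (SE 0.44, limma adjusted p = 0.045). Under cyclic loess XLOC_021295 stood at -0.54 and G6pc2 at 0.39 (limma adjusted p = 0.44 and 0.061). The gene thus rose relative to the new locus here under TMM, and whether this pair differs from Isl1 and XLOC_009795 was not tested.

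The loci beside other islet genes did not pass the edgeR test, nor the pair test where the gene had been tested. XLOC_028075, 50.7 kb downstream of the beta cell factor gene Nkx6-1, came nearest, with 0.824, 0.766 and 0.708 CPM against 0.547, 0.352 and 0.424 CPM (-0.79, SE 0.22, edgeR adjusted p = 0.054). Nkx6-1 is listed at 0 counts and so gave no pair, with 99.5% of its exonic bases shared. Beside Slc30a8, the zinc transporter of insulin granules, XLOC_012783 had 1.05, 0.638 and 0.687 CPM against 1.10, 1.25 and 1.27 CPM (0.61, SE 0.23, edgeR adjusted p = 0.11), higher in high fat without overlap. XLOC_018375, 1.99 kb upstream of Ins1, 1 of the 2 mouse insulin genes, had 1.41, 1.32 and 1.37 CPM against 1.38, 1.37 and 1.60 CPM (0.08, edgeR adjusted p = 0.76). Of the exonic bases of the assembled Ins1 locus, 61.6% are shared with another locus.

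The remaining ones were at low level. XLOC_001758 and XLOC_001757, beside the secretory granule gene Scg2, stood at -0.22 and 0.81 (edgeR adjusted p = 0.69 and 0.23) while Scg2 itself was called higher. Beside the prohormone convertase genes Pcsk1 and Pcsk2, XLOC_009648 stood at 0.42 and XLOC_021520 at -0.60 (edgeR adjusted p = 0.40 and 0.29). XLOC_006587 beside the peptide YY gene Pyy stood at 0.26, XLOC_021539 beside the factor gene Nkx2-2 at 0.02, and XLOC_009309 and XLOC_009310 beside the urocortin gene Ucn3 at -0.67 and 0.26. Of the exonic bases of the assembled Nkx2-2 locus, 68.7% are shared with another locus. Signs were mixed in this set, which has no common direction under TMM.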

How the data were processed

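For each locus and library the authors deposited a raw read count and a scaled value, beside a transcript assembly in build mm9. The submitters' processing notes name Cufflinks 2.1.1, TopHat2 2.0.8, edgeR and HTSeq 0.5.4p3. Their order, their settings and any use of strand in counting are not given in the sources used here. Per the labels' protocols, libraries were ribosome-depleted and stranded, without poly(A) selection. Each value of the deposited scaled signal divided by 1 constant per library gave whole reads for 100% of values within 0.001, equal to the raw counts, so a count test on those reads makes the calls given in the report. Columns marked HDR were read as the high fat diet, an inference on which every direction rests.

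Lengths, sides and gaps were computed from the assembly. Coding loci were named where their exon and intron lengths matched a GENCODE M21 gene on the same chromosome and strand (19595 loci, of which 1375 by a rule for 2-exon loci with 40 bases of tolerance). Of 18251 matches of whole chains made without regard to position, 99.8% lay on the right chromosome and strand.

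In R 4.3.3, edgeR 4.0.16 (filterByExpr, TMM, quasi-likelihood, diet alone, two-sided) tested the loci, and limma 3.58.1 with trend tested differences of log2 CPM (prior count 2) from the nearest coding locus. Fold changes are high fat over normal diet and CPM are TMM-scaled. SEs were derived from the fold change and its F statistic. Scripts were tested on simulated data. The labels give no batch. Alternatives covered scaling, filters, tools (DESeq2 1.42.0, cyclic loess), a replicate block, an acinar covariate and each library left out. Loci are named as the largest called changes, the most abundant loci overall and by position, the coding loci with most new loci, the leading pairs and the neighbours of listed islet genes. The loci and lists were chosen with earlier results of these data known.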

Additional observations from a re-analysis of the deposited data

How the results depend on the processing

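Called higher and lower were 100 and 261 loci. The DESeq2 test called 170 and 370, cyclic loess 29 and 14, limma on the scaled values 25 and 223, and the acinar covariate 0 and 0. Leaving out 1 library gave from 0 to 193 higher and from 0 to 387 lower, with the highest counts without high fat 3. The cause was not tested. The replicate block gave 3 and 3, and 143 pairs against 285. The labels do not say whether same-numbered libraries belong together, and the correlations of their deviations were -0.075, 0.075 and -0.014. With 3 libraries per diet, 1 of each number, the block cannot change a difference of means. The share of counts, still at a difference of 0.051, therefore says nothing on such pairing. Pairs called ranged from 0 to 600 when 1 library was left out. The median log2 fold change of -0.33 became -0.0022 under cyclic loess and -0.23 among loci of 200 or more counts. The difference in the share of counts turned to -0.072 without the 71 loci of 50 CPM or more, an alternative chosen after seeing the data, as were the fits of the median. Of 728 values for 52 named loci under the alternatives, 493 kept direction and outcome, 214 lost the call, 4 gained it and 17 changed sign, each of these at an adjusted p far above the threshold. Only 30 of the 52 loci were called in the main fit, so the others had no call to lose. All 30 lost the call with the acinar covariate, and again without normal diet 1, 2 or 3. The replicate block took it from 24. Cyclic loess turned XLOC_030244 to -0.011, XLOC_034984 to -0.0058, XLOC_021275 to 0.046, XLOC_001758 to 0.24 and XLOC_009579 to 0.22. XLOC_009579 was also turned by DESeq2 size factors (0.0088), the DESeq2 test (0.0091) and the scaled values (0.028). With 1 library left out XLOC_009579 ranged from -0.11 to 0.048, XLOC_006295 from -0.29 to 0.027, XLOC_021539 from -0.23 to 0.54 and XLOC_012780 from -0.054 to 0.28. Loci near 60 counts have about 10 counts a library, and differences under the spread of such counts were not detectable.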

Other observations

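The widest rise of any tested new single-exon locus came from 1 library. XLOC_007997, 2170 bases on chromosome 12 from 70462619 to 70464788 and 4.47 kb upstream of Nemf, a gene of ribosome quality control, had 0.416, 0.365 and 0.316 CPM in normal diet 1, 2 and 3 and 0.265, 0.217 and 49.9 CPM in high fat 1, 2 and 3. High fat 3 held 6473 counts of it, and the other libraries between 21 and 52. Its log2 fold change of 5.53 (SE 1.84) did not pass (edgeR adjusted p = 0.082) and was -0.58 without high fat 3. It was 2.23 under cyclic loess (limma adjusted p = 0.48), 1.93 with the replicate block (edgeR adjusted p = 0.53) and 2.01 in the fit of log2 scaled values, where limma called it (adjusted p = 2.2e-08), while Nemf stood at 0.25 (edgeR adjusted p = 0.13). The locus was singled out after its values were seen. In all, 5 of the 5702 loci had more than 50% of their CPM in 1 library, 4 of them in normal diet 1 and this one in high fat 3, and edgeR called none of the 5.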
